A study of Rattus norvegicus with 6 samples.

Results

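Intermediate filament genes encode the rope-like proteins of the cytoskeleton that give each cell type its mechanical scaffold. The 7 genes described here were chosen by their rat Ensembl identifiers, from the 26405 genes in the deposited table. They were Gfap (ENSRNOG00000002919), Vim (ENSRNOG00000018087), Nes (ENSRNOG00000018681), Des (ENSRNOG00000019810), Nefl (ENSRNOG00000013658), Nefm (ENSRNOG00000013916) and Nefh (ENSRNOG00000008716). All 7 were measured in every library and all 7 passed the filter on low counts, which left 18206 genes. RNA was sequenced from rat astrocytes, neurons and oligodendrocyte precursor cells (OPCs) in culture, with 2 libraries of each. Astrocytes and OPCs had been passaged 1 time, 8 days into culture, and were kept for 6 further days, whereas neurons were grown for 7 days without passage. No treatment or genetic change is given for any group, and each cell type was its own catalogue product of a single supplier. Cell type therefore cannot be told apart from product, nor, for neurons, from passage and time in culture.

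Cells of the nervous system change their filaments as they mature. Neural progenitors carry nestin (Nes) and vimentin (Vim), and maturing astrocytes add glial fibrillary acidic protein (Gfap), which is the usual histological marker of astrocytes and becomes more abundant in reactive ones. Neurons build neurofilaments from the light, medium and heavy chains (Nefl, Nefm and Nefh), which fill the axon and set its calibre. Desmin (Des) is a close relative of vimentin best known from muscle, and is also found in pericytes.

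Libraries held between 22265917 counts (OPC replicate 1) and 102861667 counts (astrocyte replicate 1). Levels are given as CPM, a gene's count scaled to library size with TMM factors (trimmed mean of M-values), and 3 counts corresponded to between 0.0292 and 0.135 CPM by total counts. The labelled cell types were checked against the members that mark them. Gfap was highest in both astrocyte libraries, and Nefl and Nefm were highest in both neuron libraries. No member is a defining marker of OPCs, and other markers were not analysed here because the identifiers could not be paired with symbols. In cultures measured in bulk, fewer cells that carry a transcript and less of it per cell cannot be told apart.

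Promoter sequences from RefSeq (build GRCr8) were matched by symbol for 4 of the 7 members, Gfap, Vim, Nes and Des. They are the members with their highest level in astrocytes, and neither peaks nor methylation were measured at them. Each is the 250 bases before the gene's start, 5′ to 3′ on the gene's own strand, at chr10:88361662-88361911 on the minus strand for Gfap, chr17:81577011-81577260 on the plus strand for Vim, chr2:175736338-175736587 on the plus strand for Nes and chr9:84299376-84299625 on the plus strand for Des. Capitals mark matches to a set of motifs searched on both strands.
Gfap: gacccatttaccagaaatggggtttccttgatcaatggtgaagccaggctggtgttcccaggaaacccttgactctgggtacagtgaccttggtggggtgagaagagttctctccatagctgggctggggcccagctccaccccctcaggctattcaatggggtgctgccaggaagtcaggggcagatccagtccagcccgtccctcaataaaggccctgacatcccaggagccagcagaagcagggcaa
Vim: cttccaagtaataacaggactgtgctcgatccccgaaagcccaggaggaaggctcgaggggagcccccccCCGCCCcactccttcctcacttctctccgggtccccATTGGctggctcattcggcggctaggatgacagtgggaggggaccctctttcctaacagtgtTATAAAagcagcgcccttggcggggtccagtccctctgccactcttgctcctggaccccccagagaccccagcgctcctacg
Nes: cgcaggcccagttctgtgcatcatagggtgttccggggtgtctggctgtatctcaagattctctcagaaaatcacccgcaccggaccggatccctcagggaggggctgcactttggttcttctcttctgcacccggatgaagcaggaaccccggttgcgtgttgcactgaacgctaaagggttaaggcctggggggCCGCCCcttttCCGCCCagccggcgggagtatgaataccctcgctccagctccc
Des: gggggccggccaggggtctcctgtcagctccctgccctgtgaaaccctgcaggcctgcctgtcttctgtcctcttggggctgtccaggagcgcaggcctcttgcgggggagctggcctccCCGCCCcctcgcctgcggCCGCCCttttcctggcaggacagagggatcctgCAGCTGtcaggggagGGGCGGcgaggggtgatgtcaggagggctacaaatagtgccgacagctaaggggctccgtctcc
The motifs were the TATA box (TATAAA), the CCAAT box (CCAAT), the GC box (GGGCGG), the E box (CANNTG), the AP-1 site (TGANTCA), the STAT site (TTCNNNGAA) and the CArG box. Vim held 1 TATA box, 82 to 77 bases before its start, together with 1 CCAAT box and 1 GC box. Nes held 2 GC boxes, and Des held 3 GC boxes and 1 E box. No motif of the set was matched in the Gfap window, and no 2 matches overlapped. Over 33465 rat promoter windows of this length, 12.9% held the TATA box, 34.0% the CCAAT box, 30.5% the GC box and 65.6% the E box. The AP-1 site was in 6.34%, the STAT site in 7.67% and the CArG box in 1.50% of them. GC content was 57.6% for Gfap, 62.4% for Vim, 60.4% for Nes and 68.8% for Des, against a median of 51.2% over all windows.

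The members fell into an astrocyte-high set and a neuron-high set. Gfap, Vim and Des were between 38.0-fold and 195-fold lower in neurons and OPCs than in astrocytes, while Nes was 5.85-fold lower in neurons. Nefl and Nefm were between 22.7-fold and 52.4-fold higher in neurons than in either of the other cultures. Nefh was higher in neurons than in OPCs, and its difference from astrocytes did not pass the test. Only the differences of Vim and Des from astrocytes, and those of Nefl and Nefm between neurons and astrocytes, passed in every alternative analysis below.

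**Figure D1:**
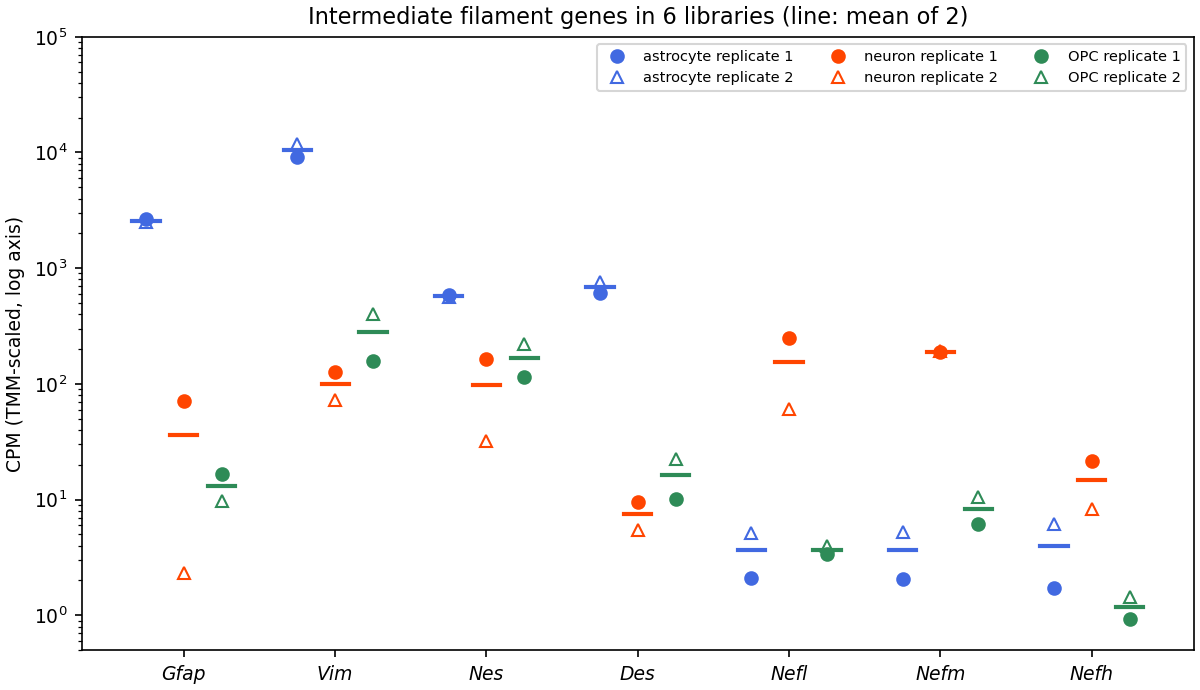
TMM-scaled CPM (log axis) of the 7 intermediate filament genes in 6 libraries; circles are replicate 1, triangles replicate 2, and each line is the mean of 2 libraries. Gfap, Vim, Nes and Des stand highest in astrocytes, with Gfap at 70.6 and 2.32 CPM in the 2 neuron libraries, and Nefl, Nefm and Nefh stand highest in neurons.

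Gfap stood at 2669.6 and 2488 CPM in the astrocyte libraries, at 70.6 and 2.32 CPM in neuron replicates 1 and 2, and at 16.6 and 9.81 CPM in the OPC libraries. Both astrocyte libraries lay far above the other 4, and the 2 OPC libraries lay between the 2 neuron libraries. The group means were 2579 ± 128 CPM in astrocytes, 36.5 ± 48.3 CPM in neurons and 13.2 ± 4.82 CPM in OPCs (SD, n = 2 each). Relative to astrocytes Gfap was 70.7-fold lower in neurons (edgeR adjusted p = 0.0197), which is -6.14 ± 1.48 as log2 fold change and SE. In OPCs it was 195-fold lower (adjusted p = 0.0133), at -7.61 ± 1.58.

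The Gfap calls did not hold in every analysis. For neurons against astrocytes the edgeR adjusted p was 0.0678 without astrocyte replicate 1, 0.0611 without astrocyte replicate 2 and 0.113 with no filter on low counts. The log2 fold change itself moved to -10.12 when neuron replicate 1 was left out and to -5.19 when neuron replicate 2 was. For OPCs against astrocytes the adjusted p was 0.0503 without astrocyte replicate 1, 0.0857 without OPC replicate 1, 0.101 without OPC replicate 2 and 0.0933 with no filter.

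Between neurons and OPCs the direction for Gfap depended on which neuron library was used. With both, the log2 fold change of neurons over OPCs was 1.47 ± 1.21 (SE; edgeR adjusted p = 0.473) and the groups overlapped. Without neuron replicate 1 the log2 fold change was -2.51, and without neuron replicate 2 it was 2.42. Each of these fits held 1 neuron library and took its spread from the other groups. The 2 neuron libraries themselves differed 30.5-fold for Gfap, so no direction between neurons and OPCs is read from these fits.

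Vim, the filament of progenitors and of most mesenchymal cells as well as of astrocytes, stood at 9211 and 11942 CPM in astrocytes, 128 and 72.0 CPM in neurons and 157 and 400.1 CPM in OPCs. No 2 cell types overlapped, and the order was astrocytes, OPCs, neurons. The log2 fold change from astrocytes was -6.73 ± 0.77 in neurons (SE; 106-fold lower; edgeR adjusted p = 0.00125) and -5.25 ± 0.72 in OPCs (38.0-fold lower; adjusted p = 0.00274). Both calls passed in 17 of 17 alternative analyses, which used other scalings, filters, tools or designs or left out a library, and the OPC value was -5.99 without OPC replicate 2. Neurons and OPCs differed by -1.48 ± 0.61 on the log2 scale, which did not pass (edgeR adjusted p = 0.165).

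Des stood at 608 and 761 CPM in astrocytes, 9.60 and 5.41 CPM in neurons and 10.1 and 22.4 CPM in OPCs. The order of the cell types was that of Vim, again with no overlap between any of them. The log2 fold change from astrocytes was -6.51 ± 0.62 in neurons (SE; 91.0-fold lower; edgeR adjusted p = 0.000716) and -5.39 ± 0.59 in OPCs (42.1-fold lower; adjusted p = 0.00127). These calls also passed in 17 of 17 alternatives, and the OPC value was -6.00 without OPC replicate 2. Neurons against OPCs gave -1.11 ± 0.50 (adjusted p = 0.196), which did not pass.

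Des and Vim kept nearly the same proportion in every library. Des counts were 6.60% and 6.37% of Vim counts in astrocytes, 7.51% and 7.52% in neurons and 6.45% and 5.59% in OPCs, while Vim itself ranged from 72.0 to 11942 CPM. Across the 6 libraries, the root mean square difference between the centred log2 CPM of Vim and of Des was 0.15, the smallest among the 21 pairs of members. The closest gene outside the 7 lay 0.35 from Vim and 0.22 from Des, so each was the nearest to the other. Whether reads of either gene were counted for the other was not tested. In the GRCr8 annotation Des overlaps another gene, LOC102550477, and whether the counting used strand is not given in the sources used here.

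Nes, an intermediate filament of neural stem and progenitor cells though not of them alone, differed less between the cultures. It stood at 584 and 565 CPM in astrocytes, 164 and 32.1 CPM in neurons and 115 and 220.1 CPM in OPCs. The astrocyte libraries were above the other 4, and the 2 OPC libraries overlapped with the neuron libraries. Neurons were 5.85-fold lower than astrocytes (edgeR adjusted p = 0.0425), at -2.55 ± 0.76 as log2 fold change and SE. Without neuron replicate 1 this was -4.16, and without neuron replicate 2 it was -1.81.

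The Nes call lay close to the threshold. It passed in 6 of 17 alternatives, with adjusted p between 0.0029 and 0.127, and was lost without either astrocyte library (0.127 and 0.112) and without either OPC library (0.0635 and 0.0656). OPCs were 3.42-fold lower than astrocytes, a log2 fold change of -1.78 ± 0.74 that did not pass (edgeR adjusted p = 0.131). That difference passed without neuron replicate 1 (0.0162), without neuron replicate 2 (0.0166) and in a fit of the 4 astrocyte and OPC libraries alone (0.0173). Neurons against OPCs gave -0.77 ± 0.72 (adjusted p = 0.533), and -2.39 without neuron replicate 1 (adjusted p = 0.0314).

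A second identifier of the table followed Nes almost count for count, a feature noticed after the values were seen. Its counts were between 92.6% and 96.3% of those of Nes in all 6 libraries. The root mean square difference of their centred log2 CPM was 0.02. Of 1850 other genes with a mean of at least 10 CPM that varied as much as Nes, 49 (2.65%) had a neighbour as close as this. Whether the 2 identifiers count the same reads was not tested, so the Nes level is uncertain.

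Nefl, the light chain on which the other neurofilament chains assemble, stood at 247 and 60.8 CPM in neurons. It stood at 2.11 and 5.19 CPM in astrocytes and at 3.39 and 3.98 CPM in OPCs. Both neuron libraries were above the other 4, and astrocytes and OPCs overlapped. The log2 fold change of neurons was 5.41 ± 0.82 over astrocytes (SE; 42.4-fold higher; edgeR adjusted p = 0.00333) and 5.38 ± 0.82 over OPCs (41.7-fold higher; adjusted p = 0.0119). When neuron replicate 1 was left out these were 4.07 and 4.04, and when neuron replicate 2 was left out 6.10 and 6.06. The value over astrocytes was 6.21 without astrocyte replicate 2. The calls of Nefl and of Nefm against astrocytes passed in 17 of 17 alternatives. OPCs and astrocytes differed in Nefl by 0.02 ± 0.69 (adjusted p = 0.987), a difference not detectable against this spread.

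Nefm, the medium chain, stood at 187 and 194 CPM in neurons, 2.05 and 5.26 CPM in astrocytes and 6.19 and 10.5 CPM in OPCs. The order was neurons, OPCs, astrocytes, with no overlap. The log2 fold change of neurons was 5.71 ± 0.60 over astrocytes (SE; 52.4-fold higher; edgeR adjusted p = 0.000915) and 4.51 ± 0.56 over OPCs (22.7-fold higher; adjusted p = 0.00683). OPCs exceeded astrocytes by 1.20 ± 0.50, which did not pass (adjusted p = 0.129). That difference passed in 1 of 17 alternatives, at 2.07 without astrocyte replicate 2 (0.0418), and the estimate dropped to 0.78 (0.377) when astrocyte replicate 1 was left out and to 0.86 (0.423) when OPC replicate 2 was. The log2 fold change of neurons over astrocytes was 6.56 when astrocyte replicate 2 was left out. In the GRCr8 annotation Nefl and Nefm are neighbouring protein-coding genes, and Nefm overlaps another gene, LOC134482139.

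Nefh, the heavy chain, which comes last in axon maturation, stood at 21.6 and 8.23 CPM in neurons, 1.73 and 6.14 CPM in astrocytes and 0.923 and 1.45 CPM in OPCs. Cell types did not overlap, but neuron replicate 2 lay just above astrocyte replicate 2. Neurons were 12.5-fold higher than OPCs (edgeR adjusted p = 0.0317), at 3.64 ± 0.80 as log2 fold change and SE. Against astrocytes the log2 fold change was 1.93 ± 0.74 (adjusted p = 0.0915), which did not pass. It passed in 3 of 17 alternatives, at 3.13 without astrocyte replicate 2 (adjusted p = 0.0417), 2.47 without neuron replicate 2 (0.0464) and 2.02 by DESeq2 (0.0221). Without astrocyte replicate 1 it was 1.38 (0.246), and without neuron replicate 1 it was 1.07 (0.326). OPCs against astrocytes gave -1.71 ± 0.75 (edgeR adjusted p = 0.151).

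The neurofilament differences between neurons and OPCs did not pass when either OPC library was left out. Calls over all genes also became far fewer in those fits, so the loss was not particular to these genes. Without OPC replicate 1 the log2 fold change was 5.27 for Nefl, 4.18 for Nefm and 3.36 for Nefh. Without OPC replicate 2 it was 5.49, 4.93 and 3.99. Nefh also lost its call without neuron replicate 1, where it stood at 2.78. The Nefh call was lost as well with a term for replicate number in the fit (edgeR adjusted p = 0.0621). The same held when Nefh was tested for exceeding 1 on the log2 scale (edgeR adjusted p = 0.0622). The log2 fold changes in those analyses were between 2.78 and 5.49, and DESeq2 and limma-voom called all 3 chains with all libraries.

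**Figure D2:**
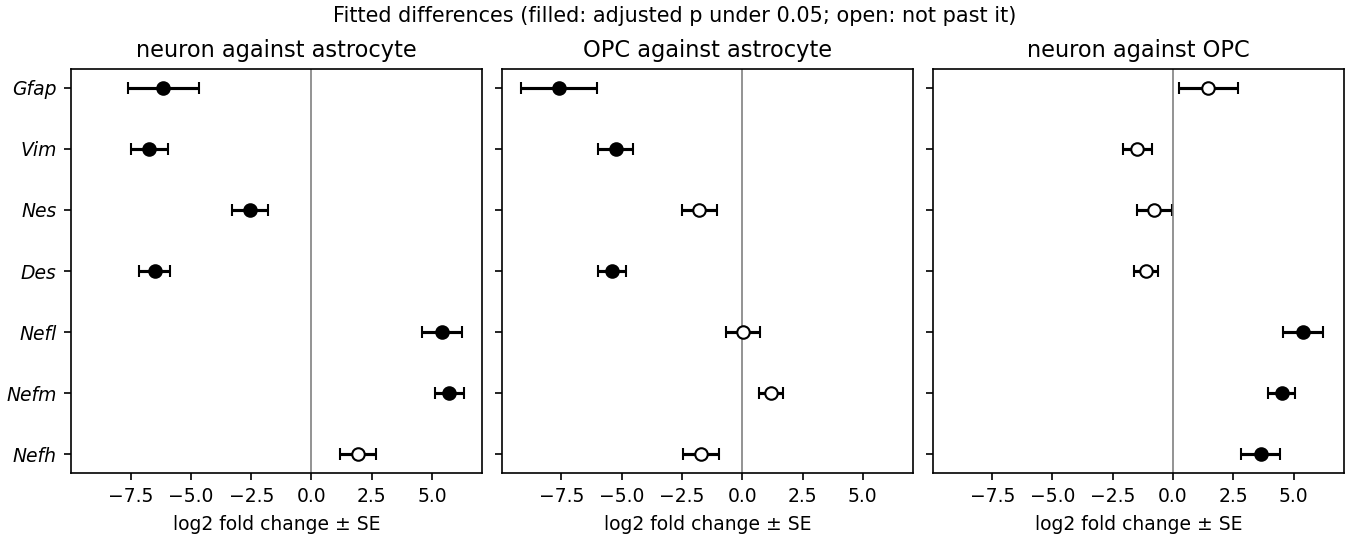
Log2 fold change (horizontal axis, ± SE) of each member in 3 comparisons; filled points passed an edgeR adjusted p of 0.05 and open points did not. Gfap, Vim and Des lie between -5.25 and -7.61 in both comparisons with astrocytes, and Nefl and Nefm lie between 4.51 and 5.71 in both comparisons of neurons.

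Counted over the 7 genes, 6 passed in neurons against astrocytes, 2 higher (Nefl and Nefm) and 4 lower (Gfap, Vim, Nes and Des) in neurons. Of all genes tested in that comparison, 30.4% passed, 14.5% higher and 15.9% lower in neurons. In OPCs against astrocytes 3 members passed, all lower in OPCs (Gfap, Vim and Des), beside 25.5% of all genes, split into 10.6% higher and 14.9% lower. In neurons against OPCs 3 members passed, all higher in neurons (the 3 neurofilament chains), beside 12.4% of all genes, split into 7.73% higher and 4.69% lower. The members' median absolute log2 fold change was 5.71, 1.78 and 1.48 in these comparisons, beside 0.91, 0.75 and 0.68 over all genes. The comparisons share libraries in pairs, so their results are not independent of one another. The libraries of the cell types did not overlap for 7, 6 and 5 members, where 68.8%, 65.5% and 57.1% of all genes did not.

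The weight of these genes in the transcriptome differed between the cultures. Together they took 1.04% and 1.32% of all counts in the astrocyte libraries, 0.1002% and 0.0390% in the neuron libraries and 0.0361% and 0.0685% in the OPC libraries. Both astrocyte libraries lay far above the other 4, and neurons and OPCs overlapped. The widest 95% Wilson interval relative to its share was 0.0353% to 0.0369%, in OPC replicate 1, and such intervals cover counting error only. The summed share stood for different genes in the cultures. Of the members' counts, Vim alone made up 70.4% and 75.7% in astrocytes, 15.4% and 19.2% in neurons and 50.7% and 59.9% in OPCs. In neurons Nefl made up 29.9% and 16.2% and Nefm 22.6% and 51.7%. An exact permutation test of 2 against 2 libraries cannot go below p = 0.33, so no test was made on these shares or on the ratios that follow.

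Expressed against the astrocyte mean, the 4 astrocyte-high genes did not stand in 1 proportion in the other cultures. In neuron replicate 1 Gfap was at 2.74%, Vim at 1.21%, Des at 1.40% and Nes at 28.6% of its astrocyte mean. In neuron replicate 2 the values were 0.0899%, 0.681%, 0.791% and 5.59%. In the OPC libraries Gfap was at 0.644% and 0.380%, Vim at 1.48% and 3.78%, Des at 1.48% and 3.27% and Nes at 20.1% and 38.3%. Nes thus kept the highest percentage of its astrocyte level among the 4 genes in all 4 of these libraries.

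Ratios of counts within a library, in which gene length cancels when libraries are compared, were compared next. Nes stood to Vim at 0.0634 and 0.0473 in astrocytes, 1.28 and 0.446 in neurons and 0.736 and 0.550 in OPCs. Astrocytes lay below the other 4 libraries, and neurons and OPCs overlapped. The ratio of Gfap to Vim was 0.290 and 0.208 in astrocytes, 0.553 and 0.0322 in neurons and 0.106 and 0.0245 in OPCs, so the astrocyte values fell between the 2 neuron values.

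**Figure D3:**
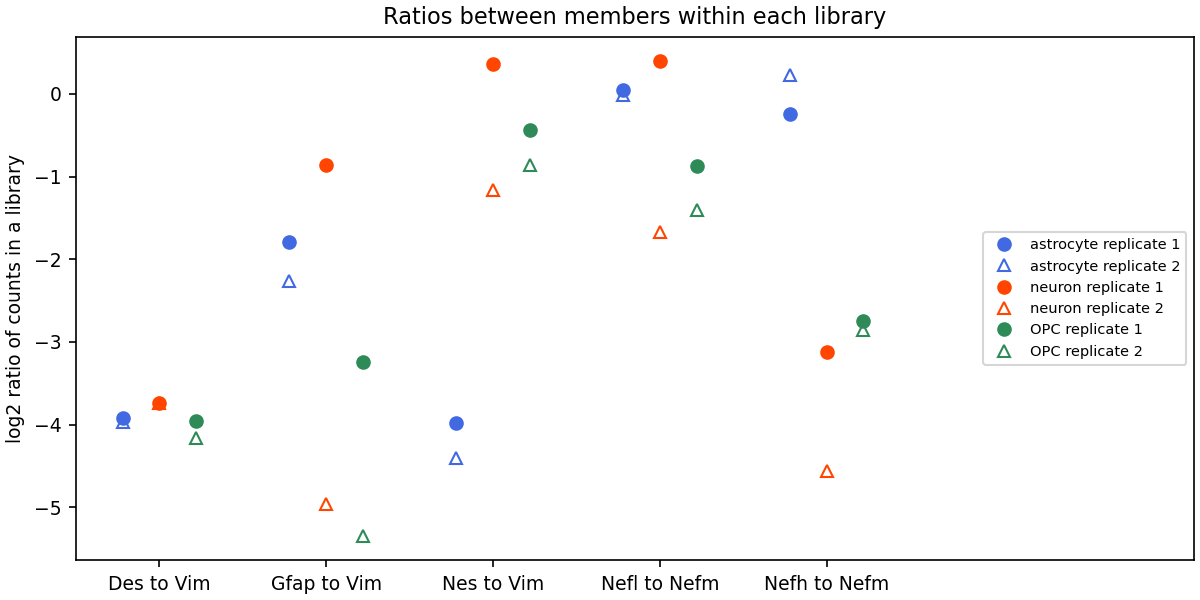
Log2 ratio of the counts of 2 members within each library (vertical axis); circles are replicate 1 and triangles replicate 2. Des to Vim stays between -4.16 and -3.73 in all libraries, Nes to Vim is lowest in astrocytes, and Gfap to Vim spans -4.96 to -0.86 in neurons alone.

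Among the 3 neurofilament chains, Nefh held a share that did not overlap between any of the cell types, whereas the shares of Nefl and Nefm overlapped between some of them. Of the summed counts of the 3 chains, which are not corrected for gene length, Nefh made up 29.4% and 37.0% in astrocytes, 4.73% and 3.13% in neurons and 8.79% and 9.09% in OPCs. The 3 cell types did not overlap in this share. In astrocytes and OPCs it rested on between 24 and 258 Nefh counts, with a 95% Wilson interval of 5.98% to 12.7% in OPC replicate 1. The Nefl share was 54.2% in neuron replicate 1 and 23.1% in neuron replicate 2, and the Nefm share was 41.0% and 73.7%. The Nefl share of the other 4 libraries, at 25.0% to 35.8%, lay between those of the 2 neuron libraries. The Nefm share was 34.8% and 31.7% in astrocytes and 59.0% and 65.9% in OPCs, and the OPC values lay between the neuron values.

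**Figure D4:**
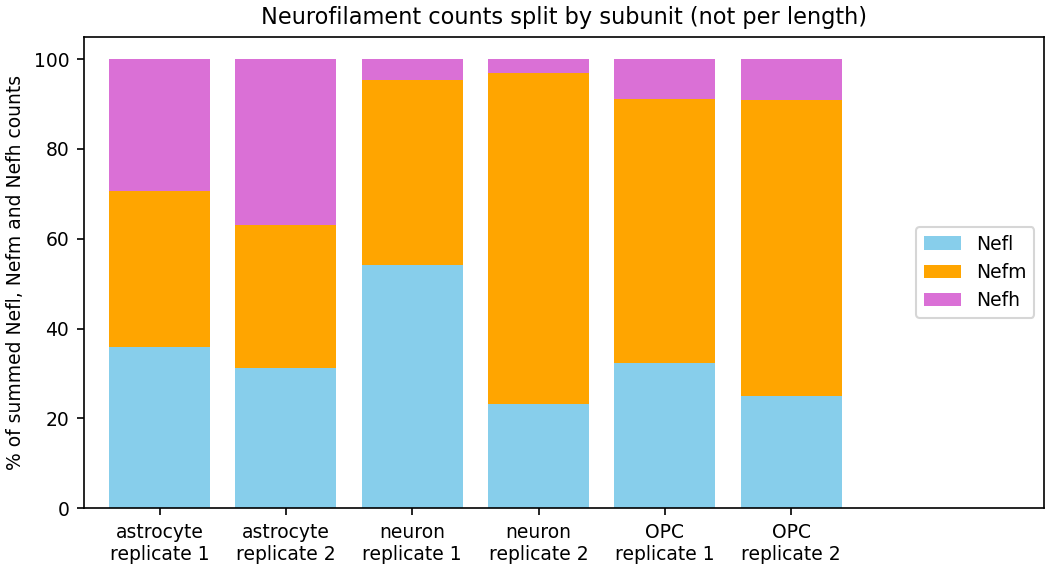
Percentage of the summed Nefl, Nefm and Nefh counts held by each gene in each library (stacked bars, counts not corrected for length). Nefh takes 29.4% and 37.0% in astrocytes and under 10% in every other library, and Nefl takes 54.2% in neuron replicate 1 against 23.1% in neuron replicate 2.

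Replicates of the neuron culture differed most for Gfap. Its level was 30.5-fold higher in neuron replicate 1 than in replicate 2, a log2 difference of 4.91 beside an SD of 1.15 over all tested genes, and 0.434% of genes differed at least as much. Nes (5.12-fold), Nefl (4.07-fold) and Nefh (2.62-fold) were also higher in neuron replicate 1. Vim and Des were both 1.77-fold higher there, within 1 SD of all genes, and Nefm was 1.03-fold higher in replicate 2. The astrocyte filament Gfap and the neuronal Nefl were thus both higher in the same neuron library, and the part of other cells in these values was not tested.

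In astrocytes the replicates lay close together for Gfap, Vim, Nes and Des and further apart for the neurofilament genes. The former differed by 1.03-fold to 1.30-fold, within the SD of 0.79 on the log2 scale. Nefl (2.46-fold), Nefm (2.57-fold) and Nefh (3.56-fold) were all higher in astrocyte replicate 2. In OPCs 6 of the 7 members were higher in replicate 2, by 1.18-fold to 2.55-fold, and Gfap was 1.69-fold higher in replicate 1. The log2 differences of Vim (-1.35), Des (-1.14) and Nes (-0.93) exceeded the OPC SD of 0.77 over all genes. Those of the other members lay within it.

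**Figure D5:**
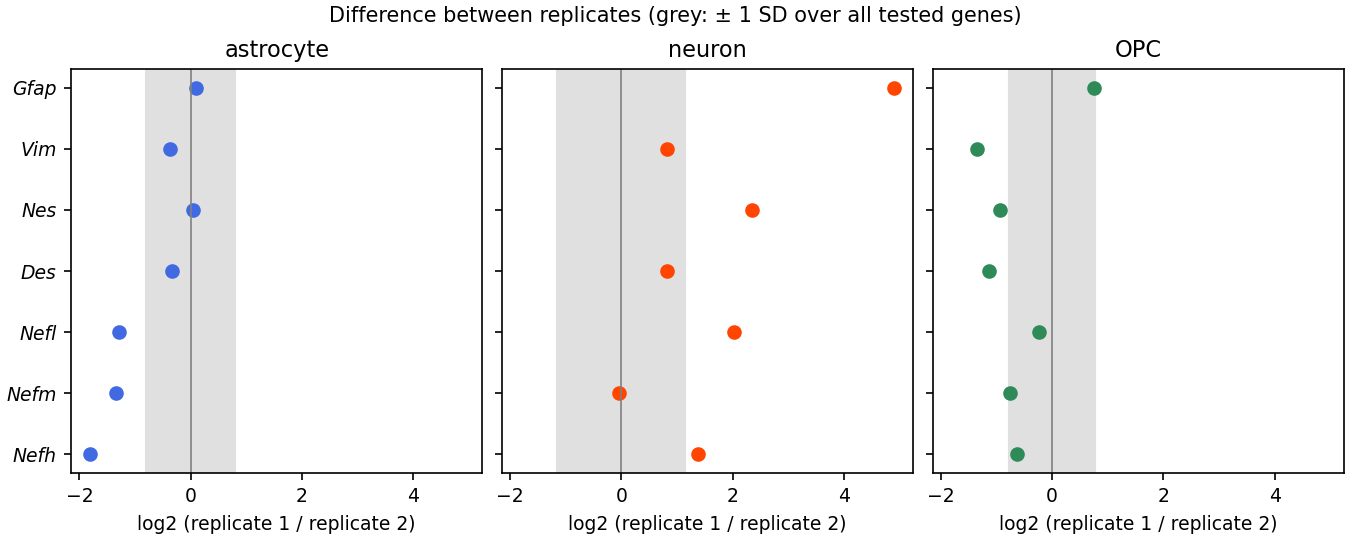
Log2 ratio of replicate 1 to replicate 2 (horizontal axis) for each member in each cell type; the grey band is 1 SD over all tested genes on either side of 0. Gfap in neurons lies at 4.91, outside the band, and the 3 neurofilament genes in astrocytes lie between -1.29 and -1.81. Nes, Nefl and Nefh in neurons and Vim, Nes and Des in OPCs also lie outside it.

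Patterns over the 6 libraries were compared by the root mean square difference of centred log2 CPM. After Vim and Des, the closest pair of members was Nefl and Nefm at 0.77, followed by Nefl and Nefh at 1.32. Gfap lay 1.58 from Des and 1.63 from Vim, and the most distant pair was Gfap and Nefm at 5.81. Nes lay closer to Des (1.76) and Vim (1.79) than to Gfap (2.66). Among 11075 other genes with a mean of at least 10 CPM, the nearest to Gfap was ENSRNOG00000012840 at 0.36. It stood at 6695 and 5621 CPM in astrocytes, 111 and 5.97 CPM in neurons and 32.8 and 12.8 CPM in OPCs. It was chosen for its likeness over these same libraries. The nearest to Vim was ENSRNOG00000009779 at 0.35, also the nearest to Des. The nearest to Nefl was ENSRNOG00000029738 at 0.33, and the nearest to Nefm was ENSRNOG00000014046 at 0.23. The sources used here do not pair these identifiers with symbols.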

How the data were processed

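The authors deposited a table of raw, whole-number gene counts for 6 libraries of cultured rat cells. Per the labels' protocols, RNA was isolated with a column kit and 250 ng were sent for Illumina sequencing. The aligner, the counter, the build and the strand setting were not given in the sources used here. Each column carried the description of 1 sample, and 0 columns were left out. The 7 members were taken by identifier, with the symbols given with that choice. The RefSeq gene table (GRCr8) paired 0 of 26405 identifiers with a symbol, so lists of other filament genes and cell type markers were not run.

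Genes were filtered with filterByExpr (minimum count 10, minimum total 15). Counts were scaled by TMM (factors 0.794 to 1.21) and fitted with edgeR 4.0.16 in R 4.3.3. The robust quasi-likelihood fit had a coefficient for each cell type and 3 residual degrees of freedom. Two-sided F tests were adjusted by Benjamini-Hochberg over all 18206 genes, with a threshold of 0.05. Standard errors were derived from the fold change and F. DESeq2 1.42.0 and limma 3.58.1 were alternatives, among other scalings, filters, designs, thinned counts and omission of each library. Centred log2 CPM used a prior count of 2. The steps were also run on simulated counts with few changed genes, a setting unlike these data, and no result here rests on that run. All 7 members were named whether or not they passed. For each member the nearest other gene was found, and identifiers were printed for at most 2 astrocyte-high and 2 neuron-high members. The members, lists and tests were chosen with earlier results of these data known. The ratio of Des to Vim and the comparison of Nes with its nearest identifier were added after their values were seen. Whether replicates were separate cultures is not labelled. The p-values therefore reflect the spread of these libraries alone, and that spread may be technical. No gene had counts identical to those of a member.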

Additional observations from a re-analysis of the deposited data

How the results depend on the processing

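Of 357 values of single members under 17 alternatives in 3 comparisons, 317 kept their direction and their side of the threshold, 27 lost a call, 10 gained one and 4 changed sign, with 1 value both gaining a call and changing sign. The sign changed for Gfap in neurons against OPCs without neuron replicate 1 (-2.51), against 2.42 without neuron replicate 2. It also changed for Nefl in OPCs against astrocytes, at -0.031 with a mean of at least 5 CPM, -0.38 without astrocyte replicate 1 and -0.0076 without OPC replicate 2. Nefl was not called there in any alternative and stood at 0.84 without astrocyte replicate 2.

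When single libraries were omitted, the spread of the remaining library of that cell type was taken from the other groups. Between 4 and 7 members were then called in neurons against astrocytes. OPCs gave 2 to 4 against astrocytes, and the comparison of neurons with OPCs gave 0 to 4. The edgeR count of 0 came from omitting either OPC library, and 5 members (replicate 1 omitted) and 3 members (replicate 2 omitted) had an unadjusted p under 0.05. Calls over all genes also varied with the omitted library in each comparison, so the ranges are not read as particular to the members. In neurons against OPCs such calls were far fewer when either OPC library was omitted than with all libraries. The count of 0 was thus not particular to the members, and its cause was not tested. With all libraries DESeq2 and limma-voom each called 3.

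With the replicate block, 5, 3 and 2 members were called (6, 3 and 3 without it). Over all 18206 genes the calls rose to 6467, 4831 and 2445 with the block, from 5532, 4649 and 2260 without it. Nes in neurons against astrocytes (-2.70; edgeR adjusted p = 0.0689) and Nefh in neurons against OPCs (3.76; 0.0621) lost their calls with log2 fold changes no smaller than without the block, and no other member's call changed. The correlation of deviations of same-numbered libraries was 0.147, 0.292 and 0.162. No label says what a number marks.

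Scaling by total counts shifted the centre of all genes, against astrocytes, from -0.06 to 0.40 (median log2 fold change) in neurons and from -0.04 to 0.39 in OPCs. Higher genes then made up 66.2% of calls (47.7% with TMM) and 58.6% (41.6%). No member changed sign, and Nes lost its call in neurons (0.0836). The members' share of astrocyte counts was 1.47% without the 50 most abundant other genes (1.18% with them). In thinned libraries the mean log2 ratio was 0.15 for Nefl to Nefm in astrocytes (0.01 unthinned), -2.71 for Nefh to Nefm in OPCs (-2.80) and -3.80 for Des to Vim in neurons (-3.73). The last was added after the values were seen. These moves are larger than the spread of 2 libraries. The lowest count of any member was 24, for Nefh in OPC replicate 1.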
